A study of Mus musculus with 9 samples.

Results

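The replication-type histone genes lie in clusters and are named Hist1 to Hist4 in the deposited table. They were taken as every row whose symbol begins with Hist, a cluster number from 1 to 4 and the letter h, which gave 68 of the 24062 symbols. Of these, 54 lay in the Hist1 cluster on chromosome 13, 10 in Hist2 on chromosome 3, 3 in Hist3 on chromosome 11, and 1, Hist4h4, on chromosome 6. They comprise 6 linker histone H1 genes, 18 H2A, 19 H2B, 12 H3 and 13 H4 genes, and 1 of the H2B members, Hist3h2bb-ps, is annotated as a pseudogene. All measurements come from RNA sequencing of gastrocnemius, a fast calf muscle whose fibres no longer divide, from mice of mixed 129Sve/C57BL/6 strain aged 3 months. The mice carried X753 (BubR1 +/X753, hetX753) or L1002P (BubR1 +/L1002P, hetL1002P) on 1 allele of Bub1b, which encodes the mitotic checkpoint protein BubR1, or were wild type (WT), with 3 libraries of each. Both variants are alleles of mosaic variegated aneuploidy (MVA), a human syndrome of chromosome missegregation. Whether each library is a different animal is not stated, so that the p-values reflect library-to-library spread, part of which may be technical.

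Replication-type histone genes supply the core histones H2A, H2B, H3 and H4, around which DNA is wound, and the linker histone H1, which binds between these particles, while DNA is copied. Their mRNAs are made mainly in S phase, and most end not in a poly(A) tail but in a short stem-loop that is bound by the protein SLBP and is cut from the precursor with the help of the U7 small nuclear RNA. Some members are also transcribed outside S phase or have longer, polyadenylated forms in differentiated cells. The library kit used, TruSeq RNA version 2, is sold for selecting poly(A) RNA, so that transcripts without a tail are captured poorly. The part that this step plays in the levels below was not tested.

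The stem-loop sequence was looked for after the stop codon of the longest transcript of each member in GENCODE M21 (GRCm38), as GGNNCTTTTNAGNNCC on the transcript strand, where N is any base. The pseudogene Hist3h2bb-ps has no annotated coding sequence, and its whole transcript was searched. The stem-loop was found in 43 of the 68 members. No 3′ untranslated region was annotated for 1 of the 12 members tested below and 13 of the 56 others. In Hist1h2af and Hist1h2ah only 1 and 2 bases of it were annotated. A missing match in any of these members does not show that the gene lacks the stem-loop. The 16-base core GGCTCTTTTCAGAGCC was shared by 25 members and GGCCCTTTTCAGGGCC by 7. The core of Hist2h2ac, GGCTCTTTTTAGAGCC, was found in this 1 member. The most abundant H1 member, the 2 most abundant H4 members and the H2A member whose level differed between genotypes are shown as examples of the site that SLBP binds, each 26 bases long, in transcript orientation, with the 16-base core in capitals.
Hist1h1c: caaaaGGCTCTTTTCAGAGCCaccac
Hist1h4h: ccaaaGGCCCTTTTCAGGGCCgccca
Hist1h4i: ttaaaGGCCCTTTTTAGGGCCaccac
Hist2h2ac: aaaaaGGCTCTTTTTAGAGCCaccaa
The transcripts ran on for 840 bases past the stem-loop in Hist1h1c, 46 bases in Hist1h4h, 330 bases in Hist1h4i and 57 bases in Hist2h2ac. No match was found in the annotated transcripts of Hist1h2bc and Hist2h2be. That of Hist1h2bc has 2 exons, and the sequence spliced out between them was not searched.

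Reads were concentrated in a few members. Over the 9 libraries the 68 members had 44734 counts, 0.0166% to 0.0259% of each library. Hist1h1c, a linker histone H1 gene, held 50.95% of them with 22790 counts, and Hist1h2bc, an H2B gene, held 22.23% with 9943. The 6 members with most counts, Hist1h1c, Hist1h2bc, Hist1h4i, Hist3h2a, Hist1h4h and Hist2h2be, together held 94.59%. With a limit of 10 counts summed over the 9 libraries, 30 of the 68 had reads: 4 of 6 H1, 6 of 18 H2A, 10 of 19 H2B, 6 of 12 H3 and 4 of 13 H4 members. A count in every library was found for 19 members, and a mean of at least 1 CPM (counts scaled to TMM-adjusted library totals) for 8. Only 12 members passed the filter on low counts and were tested. The number with reads ran from 27 to 30 as each library was left out.

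**Figure D1:**
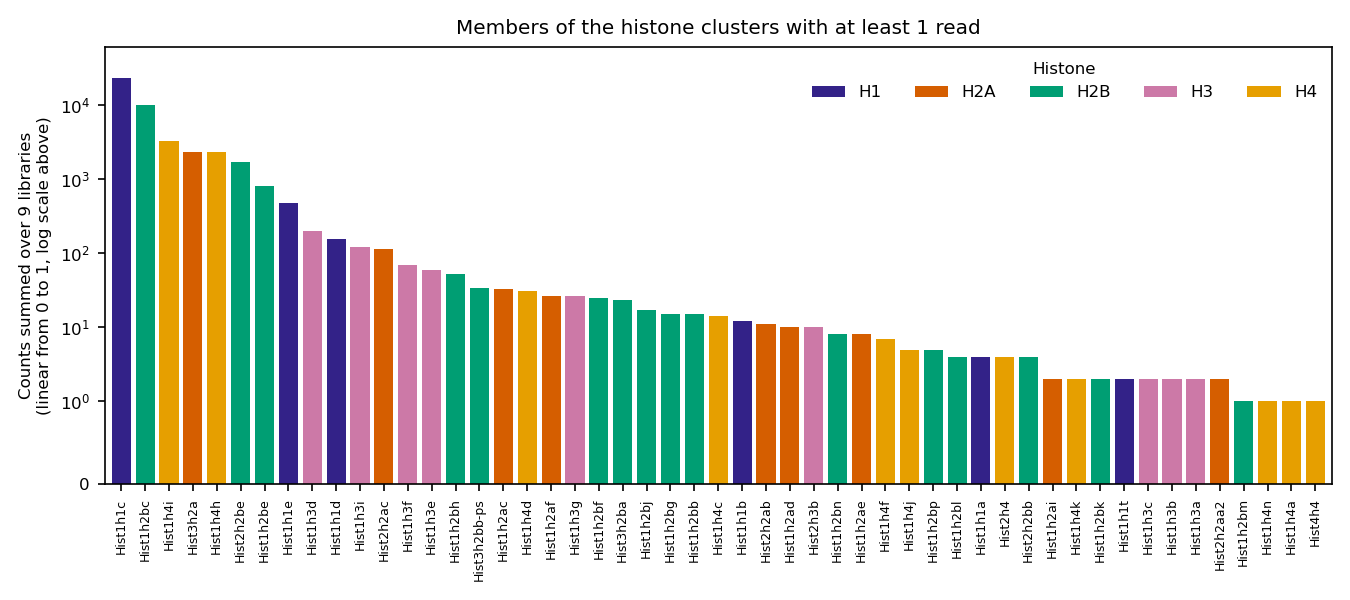
Counts summed over the 9 libraries for each of the 51 members with at least 1 count, coloured by histone, on an axis that is linear from 0 to 1 and logarithmic above. Hist1h1c (22790 counts) and Hist1h2bc (9943 counts) stood above the other members, and the bars fell to 1 count at the right.

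The other members were rare or not seen. Counts were 0 in all libraries for 17 members, which allows a level of up to 0.0135 CPM (3 counts of the summed totals of all libraries, counting error only): Hist1h2aa, Hist1h2ab, Hist1h2ag, Hist1h2ah, Hist1h2ak, Hist1h2an, Hist1h2ao, Hist1h2ap, Hist1h2ba, Hist1h2bq, Hist1h2br, Hist1h3h, Hist1h4b, Hist1h4m, Hist2h2aa1, Hist2h3c1 and Hist2h3c2. That limit holds for reads that could be assigned to 1 gene: 10 of the 17 share over 80% of their 50-base stretches with other transcripts, and 2, Hist2h2aa1 and Hist2h3c1, share all of them. Hist1h2aa and Hist1h2ba are testis-type genes. A total of 1 to 8 counts was seen for 21 more: Hist1h1a, Hist1h1t, Hist1h2ae, Hist1h2ai, Hist1h2bk, Hist1h2bl, Hist1h2bm, Hist1h2bn, Hist1h2bp, Hist1h3a, Hist1h3b, Hist1h3c, Hist1h4a, Hist1h4f, Hist1h4j, Hist1h4k, Hist1h4n, Hist2h2aa2, Hist2h2bb, Hist2h4 and Hist4h4. Hist1h1t, a testis H1, had its 2 counts in hetX753 1. Between 10 and 69 counts were seen for 18 members that were not tested, with mean levels of 0.0397 to 0.32 CPM. Those with most counts were Hist1h3f with 69, Hist1h3e with 60, Hist1h2bh with 52, Hist3h2bb-ps with 34, Hist1h2ac with 33, Hist1h4d with 31, Hist1h2af and Hist1h3g with 26 each, Hist1h2bf with 25, Hist3h2ba with 23, Hist1h2bj with 17, and Hist1h2bb and Hist1h2bg with 15 each. The remaining 5 were Hist1h1b, Hist1h2ad, Hist1h4c, Hist2h2ab and Hist2h3b. All 56 untested members together held 552 counts. Hist1h2bf had 22 of its 25 counts in hetL1002P 1. Hist1h2bb had 3, 3 and 5 counts in hetX753 libraries, 1, 1 and 2 in hetL1002P libraries, and 0 in every WT library.

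The tested members differed from the others in their annotated transcripts. Part of this contrast may be built in, since the filter on counts can favour long transcripts and sequence not shared with other genes. The median transcript was 1404.5 bases long for the 12 tested members (411 to 7425) and 526 bases for the 56 others (312 to 2863). The 3′ untranslated region exceeded 300 bases in 9 of the 12 and in 13 of the 56. The transcript ran on for over 100 bases past the stem-loop in 7 of 9 tested members with one, and in 15 of 34 others. A longer transcript gives more reads at an equal number of molecules, and the counts of near-identical members cannot be told apart. The median share of 50-base stretches that a member shares with other transcripts was 29.765% in the tested members and 59.92% in the others, 5 of which share all of theirs. How the counting treated reads that match several genes is not given in the sources used here. These are descriptions without a test.

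**Figure D2:**
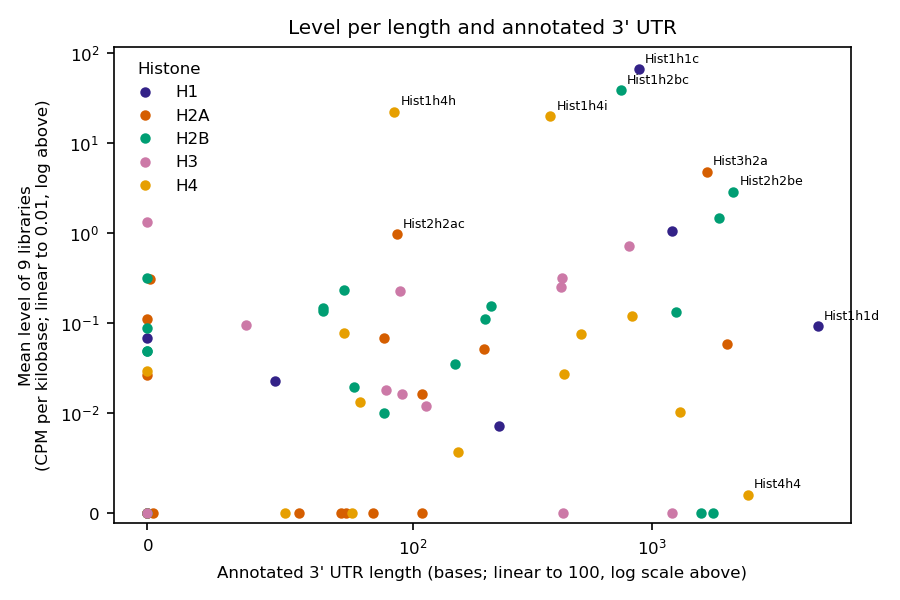
Mean level of 9 libraries in CPM per kilobase against the annotated 3′ untranslated length in bases, for all 68 members, coloured by histone. Both axes are linear near 0 and logarithmic above. Hist1h1c and Hist1h2bc were at the top, Hist1h1d had the longest 3′ region at a low level per length, and the genes along the bottom had no counts.

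Per kilobase of the longest GENCODE M21 transcript, the levels of the tested members covered a wide range. The annotation used in counting is not given, so that the counted lengths may differ. For Hist1h1d, the RefSeq promoter (from base 23554782) lies inside the GENCODE transcript (from base 23553262). Hist1h1c averaged 66.8 CPM per kilobase over 9 libraries (46.8 to 98.12), against 39.27 for Hist1h2bc, 22.51 for the H4 gene Hist1h4h and 20.13 for the H4 gene Hist1h4i. Hist3h2a followed at 4.859 and Hist2h2be at 2.911 CPM per kilobase. Hist1h2be, Hist1h3i and Hist1h1e were at 1.476, 1.342 and 1.064, Hist2h2ac at 0.9897, Hist1h3d at 0.7168 and Hist1h1d at 0.09391 CPM per kilobase. For comparison, the replication-independent genes H2afz (H2A.Z), H1f0 (a linker histone of resting cells) and H3f3a (H3.3) were at 59.6, 56.61 and 53.16 CPM per kilobase. Others of that list were lower and within the range of the tested members. H2afv, H3f3b (also H3.3) and H2afy were at 25.16, 20.27 and 15.31 CPM per kilobase, and H2afx, H2afj and H1fx at 6.047, 6.045 and 0.3397. All 11 measured genes of that list were tested.

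Across genotypes, 1 of the 12 tested members rose in hetX753 against WT and none fell, in edgeR's quasi-likelihood test on all 9 libraries with adjustment over 12989 genes. Of all genes tested, 0.508% were called, 0.331% as higher and 0.177% as lower. The called member was Hist2h2ac. The other 11 had adjusted p between 0.1527 and 0.8887. In hetL1002P against WT none of the 12 was called, with adjusted p between 0.5795 and 0.9978, and 0.0% of all genes were; 1034 genes, including 1 member, had an unadjusted p under 0.05. DESeq2 called 5 genes in that comparison and limma-voom with robust moderation 2. With same-numbered libraries of these 2 genotypes paired in a replicate block, 635 of 12684 genes (5.01%) were called. Hist1h4i was the only member among them. Hist2h2ac was not kept by the filter in that fit. In hetX753 against hetL1002P, 1 of the 12 rose, again Hist2h2ac, where 0.115% of all genes were called, 0.0616% as higher and 0.0539% as lower.

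Hist2h2ac encodes an H2A protein and lies on the minus strand at chr3:96220361-96220880 (GRCm38), where GENCODE M21 has a single exon of 520 bases with 94 bases of 3′ untranslated sequence. Its counts were 40, 27 and 34 in hetX753 libraries, 2, 2 and 3 in hetL1002P libraries, and 4, 1 and 2 in WT libraries. The hetX753 libraries lay above all others. In CPM these are 1.357 ± 0.2612 in hetX753, 0.09764 ± 0.03886 in hetL1002P and 0.08889 ± 0.03405 in WT (SD, n = 3 each). The log2 fold change was 3.78 (SE 0.42, 13.8-fold, adjusted p = 0.0168) in hetX753 against WT and 3.77 (SE 0.42, 13.6-fold, adjusted p = 0.0231) in hetX753 against hetL1002P. Against WT, hetL1002P had a log2 fold change of 0.01 (SE 0.65, adjusted p = 0.998). A 95% interval from the normal approximation, which is too narrow with so few libraries, was -1.26 to 1.29. These comparisons share their libraries, and the gene passed the filter on low counts through the hetX753 libraries. The call against WT was lost without WT 1 (adjusted p = 0.0617) or hetX753 3 (0.0567). The call against hetL1002P was lost without hetL1002P 1 (0.0998), hetL1002P 2 (0.0532) or hetX753 3 (0.0727).

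Hist2h2ac shares 54.99% of its 50-base stretches with other transcripts, and a predicted gene, Gm44492, overlaps it on the other strand, which this kit does not separate. None of the 16 untested H2A members had over 6 counts in a library. The summed level of 8 lymphocyte markers was 3.139 to 4.275 CPM in hetX753, 1.993 to 4.445 CPM in hetL1002P and 1.885 to 2.426 CPM in WT, with no marker at 0 in all libraries. Of these, 3 were tested, with a median log2 fold change of 1.20 in hetX753 against WT and none called. Ptprc was near 0 at 0.06 (SE 0.35), and Cd79b was at 1.20 (SE 0.675). Cd3e, a T cell receptor subunit, had 44, 48 and 23 counts in hetX753, 37, 3 and 3 in hetL1002P and 9, 6 and 1 in WT libraries, with a log2 fold change of 2.80 in hetX753 against WT (SE 0.85, adjusted p = 0.136). RNAs without a poly(A) tail, nearly all of them the ribosomal precursor Rn45s, summed to 4195 ± 494 CPM in hetX753, 4083 ± 1285 CPM in hetL1002P and 3845 ± 768 CPM in WT (SD, n = 3 each), with overlapping ranges. The part of either in the result was not tested.

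The start of Hist2h2ac faces that of Hist2h2be, an H2B gene studied in olfactory neurons, across 238 bases that both genes border. That stretch is shown because both genes border it and 1 of them was called. It is chr3:96220881-96221118 in GRCm38.p6, read towards Hist2h2ac on the minus strand, from RefSeq, with capitals for ATGCAAAT (octamer), CCAAT on either strand and TATAAA.
Hist2h2ac: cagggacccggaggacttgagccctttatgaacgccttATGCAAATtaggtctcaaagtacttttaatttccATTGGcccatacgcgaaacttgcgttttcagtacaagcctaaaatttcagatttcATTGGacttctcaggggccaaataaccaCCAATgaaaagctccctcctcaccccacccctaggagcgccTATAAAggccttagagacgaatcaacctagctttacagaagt
For comparison, the stretch before Hist1h1c, the most abundant member, is chr13:23738557-23738807 on the plus strand, where capitals mark AAACACA and CCAAT.
Hist1h1c: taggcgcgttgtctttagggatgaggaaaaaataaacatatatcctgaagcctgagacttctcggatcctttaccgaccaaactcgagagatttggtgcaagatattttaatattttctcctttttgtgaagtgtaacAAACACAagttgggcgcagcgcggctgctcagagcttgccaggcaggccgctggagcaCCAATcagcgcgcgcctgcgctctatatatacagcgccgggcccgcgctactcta
Over the 61 members with a promoter in the RefSeq table (250 bases before to 50 after the start, both strands), TATAAA was found in 57.38%, against 14.16% of 27025 promoters. CCAAT was found in 85.25% against 37.92%, ATGCAAAT in 21.31% against 1.75%, and AAACACA in 14.75% against 7.14%. These are matches of letters, not sites of binding.

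**Figure D3:**
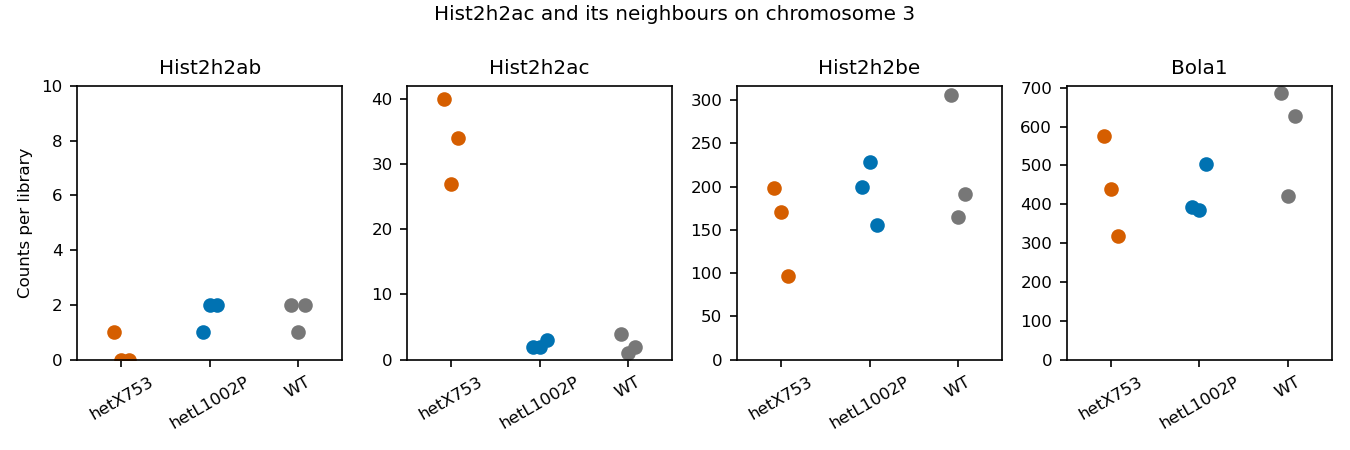
Counts per library (points) for Hist2h2ac and the genes beside it on chromosome 3, for hetX753, hetL1002P and WT, with axes from 0. Hist2h2ac had 27 to 40 counts in hetX753 libraries and at most 4 elsewhere, and the other genes did not show that pattern.

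Hist2h2be, at chr3:96221119-96223738 on the plus strand, was not called in any comparison. Its counts were 198, 171 and 97 in hetX753, 200, 229 and 156 in hetL1002P and 306, 165 and 191 in WT libraries. The levels in CPM were 6.113 in hetX753, 7.834 in hetL1002P and 8.935 in WT, and all hetX753 libraries were below all WT libraries. The log2 fold change in hetX753 against WT was -0.54 (SE 0.18, adjusted p = 0.153). Hist2h2ab, whose end is 52 bases from that of Hist2h2ac, had 1, 0 and 0 counts in hetX753, 1, 2 and 2 in hetL1002P and 2, 1 and 2 in WT libraries. Further genes nearby, chosen after their values were seen, were not called either: Bola1 had a log2 fold change of -0.46 (adjusted p = 0.272) and Sf3b4 of -0.11 (adjusted p = 0.556) in hetX753 against WT. In the same comparison Fcgr1 was at -0.30 (adjusted p = 0.759) and Mtmr11 at 0.02 (adjusted p = 0.956). Sv2a, not tested, had 3, 9 and 10 counts in hetX753, 2, 6 and 2 in hetL1002P and 3, 5 and 0 in WT libraries.

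The most abundant members had lower mean levels in hetX753 than in WT, and none of them passed the test. Hist1h1c, a linker histone gene at chr13:23738808-23740367 (plus strand), had 73.01, 92.62 and 91.21 CPM in hetX753, 103, 90.3 and 126 CPM in hetL1002P and 99.95, 108.7 and 153.1 CPM in WT libraries. The hetX753 libraries lay below the WT libraries, and the highest value was WT 3. Its log2 fold change was -0.49 (SE 0.18, adjusted p = 0.182) in hetX753 against WT and -0.18 (SE 0.18, adjusted p = 0.703) in hetL1002P against WT. After correction for transcript length and GC content these were -0.27 in hetX753 and 0.01 in hetL1002P, and without WT 3 they were -0.29 in hetX753 and 0.028 in hetL1002P. Hist1h2bc, an H2B gene at chr13:23684199-23692908 (plus strand), had 41.25, 39.54 and 28.2 CPM in hetX753, 41.15, 32.75 and 62.48 CPM in hetL1002P and 45.72, 51.05 and 66.43 CPM in WT libraries. Its log2 fold change was -0.58 (SE 0.24, adjusted p = 0.211) in hetX753 against WT, and -0.35 after the same correction. Again hetX753 and WT did not overlap, and WT 3 and hetL1002P 3 were highest.

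The 2 H4 genes tested also had lower mean levels in both carriers than in WT. Hist1h4i, at chr13:22040636-22041362 (minus strand), had 14.16, 12.55 and 11.17 CPM in hetX753, 10.31, 10.57 and 18.79 CPM in hetL1002P and 15.95, 15.13 and 23.11 CPM in WT libraries. Its log2 fold change was -0.51 (SE 0.24, adjusted p = 0.258) in hetX753 against WT and -0.45 (SE 0.24, adjusted p = 0.580) in hetL1002P against WT. When same-numbered hetL1002P and WT libraries were paired in a replicate block, with these genotypes alone in the fit, the hetL1002P value became -0.49 with an adjusted p of 0.0392, where 5.01% of all genes were called; with a correction for length and GC content added to the block it was -0.19 (adjusted p = 0.528). That correction without the block gave -0.20 in hetX753 and -0.19 in hetL1002P against WT, and leaving out WT 3 gave -0.30 and -0.24 for the same carriers. Hist1h4h, at chr13:23531050-23531519 (plus strand), had 9.844, 12.63 and 8.216 CPM in hetX753, 8.655, 7.873 and 9.489 CPM in hetL1002P and 10.03, 10.63 and 17.84 CPM in WT libraries. All hetL1002P libraries lay below all WT libraries, with a log2 fold change of -0.56 (SE 0.23, adjusted p = 0.580). In hetX753 it was -0.32 (SE 0.23, adjusted p = 0.428), and 0.036 after correction for transcript length and GC content. Without WT 3 it was -0.012 in hetX753 and -0.25 in hetL1002P, where the correction gave -0.20.

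None of the remaining tested members was called. Hist3h2a, an H2A gene at chr11:58954685-58956830 (plus strand) whose exons overlap those of Trim17 on the same strand, had counts of 276, 243 and 225 in hetX753, 311, 217 and 208 in hetL1002P and 404, 179 and 266 in WT libraries. Its log2 fold change was -0.19 in both carriers. The H1 gene Hist1h1e had 54, 47 and 56 counts in hetX753, 75, 64 and 33 in hetL1002P and 82, 31 and 26 in WT libraries, with log2 fold changes against WT of 0.24 in hetX753 and 0.35 in hetL1002P. Another H1 gene, Hist1h1d, had 16, 15 and 20 counts in hetX753, 18, 17 and 21 in hetL1002P and 28, 8 and 13 in WT libraries. The H2B gene Hist1h2be overlaps Hist1h1e on the same strand, so that their reads may be split, and had log2 fold changes of 0.30 in hetX753 and -0.07 in hetL1002P, the second being 0.026 with scaling by library totals alone. Its counts were 73, 131 and 110 in hetX753, 91, 72 and 80 in hetL1002P and 97, 57 and 96 in WT libraries. The H3 gene Hist1h3d had 23, 32 and 19 counts in hetX753, 22, 15 and 25 in hetL1002P and 30, 20 and 12 in WT libraries. Hist1h3i, which shares 87.57% of its 50-base stretches with other transcripts, had 11, 13 and 17 counts in hetX753, 20, 10 and 15 in hetL1002P and 19, 9 and 8 in WT libraries. For these 6 members the libraries of each carrier overlapped those of WT.

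**Figure D4:**
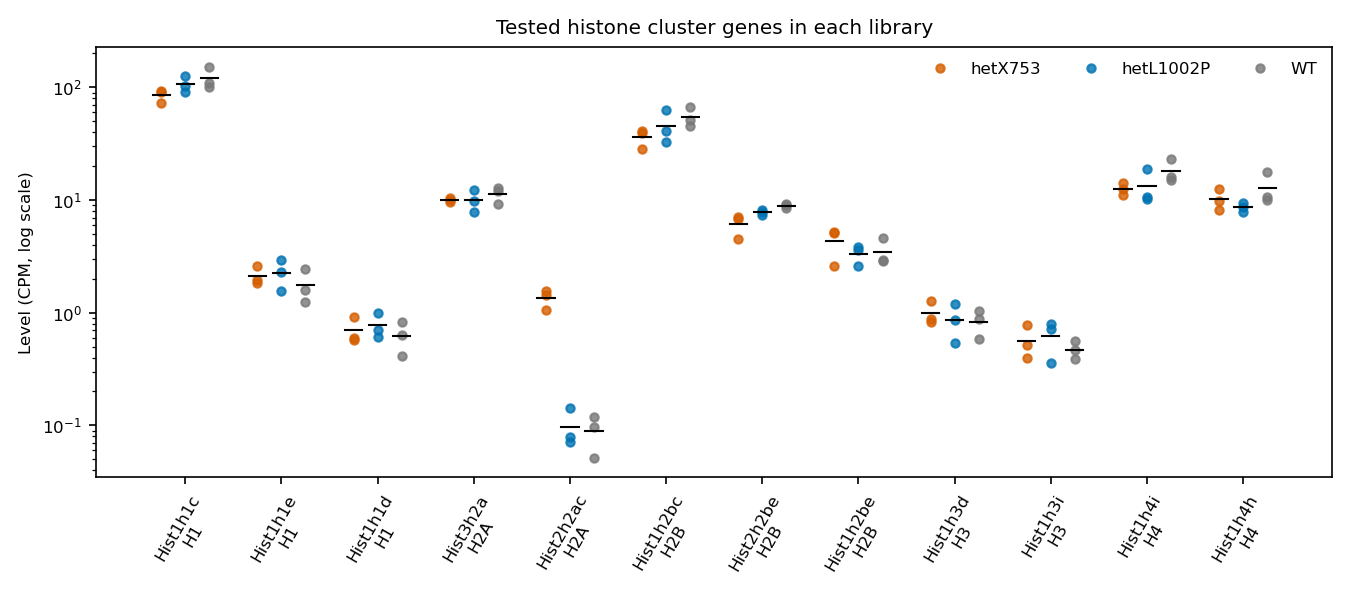
Level in CPM (log axis) of the 12 tested members in each library, grouped by histone, with hetX753, hetL1002P and WT side by side, points for libraries and bars for means of 3. Hist2h2ac in hetX753, at 1.066 to 1.569 CPM, stood apart from the 6 other libraries, at or below 0.1423 CPM.

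Counted over libraries, 1 of the 12 tested members lay with all hetX753 libraries above all WT libraries, as did 16.7% of all genes, and 4 lay below, Hist1h1c, Hist1h2bc, Hist1h4i and Hist2h2be, as did 15.8% of all genes. Against WT, no member had all hetL1002P libraries above, where 5.67% of all genes did, and 2 had them below, Hist1h4h and Hist2h2be, where 3.77% did. Between the carriers, Hist2h2ac had all hetX753 libraries above all hetL1002P libraries, as did 7.44% of all genes, and Hist2h2be had them below, as did 6.98%. The median log2 fold change of the 12 was -0.04 in hetX753 against WT and -0.12 in hetL1002P against WT, against 0.00 and 0.01 for all genes tested. An unadjusted p under 0.05 was found for 4 and 1 of the 12, against 20.9% and 7.96% of all genes. In the fit without a low-count filter, 39 more members were tested and none was called; the smallest p in hetX753 against WT was that of Hist1h2bb (adjusted p = 0.132 in edgeR).

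**Figure D5:**
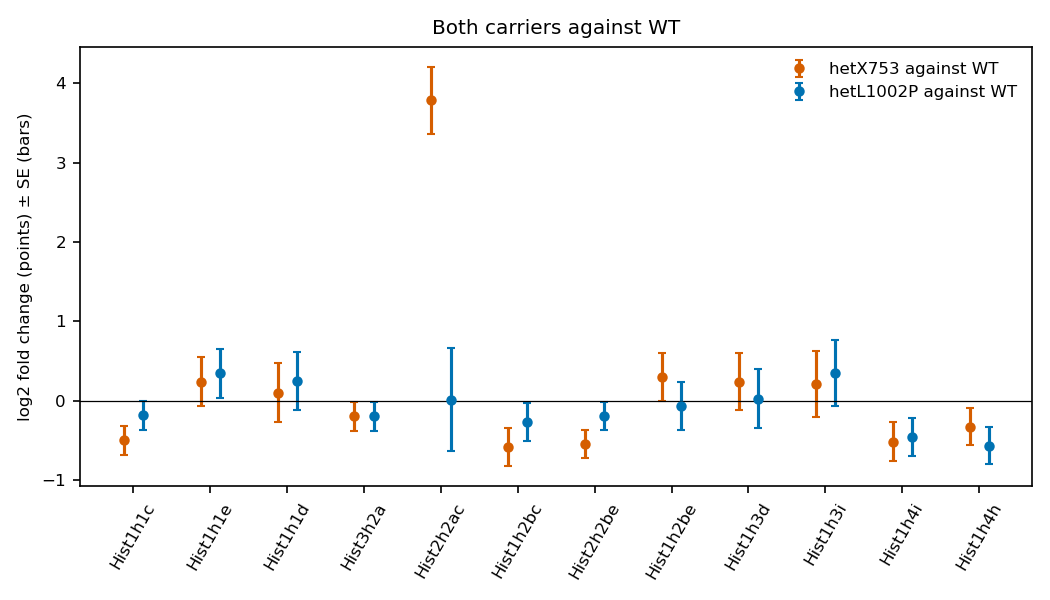
Log2 fold change against WT (points) with its standard error (bars) for the 12 tested members, hetX753 and hetL1002P side by side. Hist2h2ac in hetX753, at 3.78, was the only called value.

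Summed over all 68 members, the level was 173.4 ± 11.21 CPM in hetX753, 202.1 ± 40.2 CPM in hetL1002P and 235.6 ± 49.38 CPM in WT libraries (SD, n = 3 each). The log2 ratio of the means was -0.44 for hetX753 against WT (combined SD of the log2 levels 0.32) and -0.22 for hetL1002P against WT (combined SD 0.42), as a description without a test. The highest values were 292.4 CPM in WT 3 and 245.4 CPM in hetL1002P 3, which also stood apart from the other libraries on the first principal component of all genes. Without WT 3 the ratio was -0.26 for hetX753 against WT and -0.04 for hetL1002P against WT. With all libraries kept, the muscle markers totalled 224200 ± 9095 CPM in hetX753, 239400 ± 19850 CPM in hetL1002P and 269600 ± 19520 CPM in WT. Their genotype means had the same order as those of the member sum. Within hetX753 the order differed, with marker totals of 232000, 226400 and 214200 CPM and member sums of 166.1, 186.3 and 167.9 CPM. In hetX753 against WT, 10 of 10 fibroblast markers (median log2 fold change -0.34) and 9 of 9 macrophage markers (median -0.32) also had values below 0. None was called, and 49.6% of all genes were below 0. Other lists did not share this: 5 of 10 endothelial, 3 of 7 satellite cell, 2 of 8 adipocyte and 0 of 3 lymphocyte markers were below 0. In hetL1002P against WT, 4 of 10 fibroblast and 4 of 9 macrophage markers were below 0. The part of these cell types in the result was not tested. Bulk RNA cannot tell fewer cells of a type from less RNA per cell.

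Genes that work with these members, and their counterparts outside S phase, were mostly not called. None of the 11 replication-independent histone genes was called; 9 had values below 0 in hetX753 against WT (median -0.30) and 10 in hetL1002P against WT (median -0.25), where 49.6% and 48.1% of all genes did. Of the factors that process the 3′ end or degrade histone mRNA, 20 of 21 were tested and none was called, with a median of 0.06; Slbp had a log2 fold change of -0.04. Of the histone chaperones 16 of 18 were tested and none was called. In the S phase and mitosis list 19 of 30 were tested, and 1, Ccne2 (cyclin E2), rose in hetX753 against WT (log2 1.12, adjusted p = 0.0417 in edgeR), where 0.331% of all genes were called as higher. It had 65, 73 and 56 counts in hetX753, 55, 58 and 40 in hetL1002P and 40, 22 and 26 in WT libraries. Its log2 fold change in hetL1002P against WT was 0.78 (SE 0.20, adjusted p = 0.580 in edgeR). Without WT 1 no gene was called in hetX753 against WT, so that the call on Ccne2 was lost. The list summed to 107.4 ± 3.1 CPM in hetX753, 112 ± 5.8 CPM in hetL1002P and 111.3 ± 4.8 CPM in WT libraries (SD, n = 3 each). Within it, the replication licensing gene Mcm2 averaged 10.08 CPM over the 9 libraries. The proliferation marker Mki67, not tested, had 10, 8 and 2 counts in hetX753, 9, 13 and 5 in hetL1002P and 15, 6 and 5 in WT libraries. Bub1b had 8, 8 and 5 counts in hetX753, 10, 9 and 2 in hetL1002P and 21, 11 and 16 in WT libraries, with log2 fold changes of -1.21 in both carriers (adjusted p = 0.177 and 0.580). None of the marker lists for skeletal muscle, macrophages, endothelium, fibroblasts, satellite cells, lymphocytes, erythroid cells or adipocytes held a called gene in any of the 3 comparisons.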

How the data were processed

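RNA of whole gastrocnemius was made into libraries with TruSeq RNA version 2 and the authors deposited whole-number counts per gene symbol, not normalized, for 9 libraries of 3 genotypes. Per the submitters' processing notes, the build was mm10 and the tools included featureCounts 1.4.6 and Subread, with TopHat2 2.0.14 and Bowtie2 2.2.6. For the annotation, the strand setting and the handling of shared reads, the sources used here give nothing. Library totals ran from 19768149 to 33977252. Groups come from the titles. The members and gene lists were chosen with earlier results of these data known. Tests used edgeR 4.0.16 in R 4.3.3 (filterByExpr, TMM, robust quasi-likelihood fit of all 9 libraries, Benjamini-Hochberg over 12989 genes, calls at an adjusted p under 0.05). Alternatives used DESeq2 1.42.0 and limma 3.58.1. Only the main edgeR fit was tried on simulated data, with changes set in genes of higher mean counts than Hist2h2ac. Standard errors are the log2 fold change divided by the square root of F. Members kept by the filter were named with their counts, and of the others the 12 with most counts, ties included. All 68 members matched GENCODE M21 (GRCm38, the assembly mm10 names) and a RefSeq gene by an older symbol, 67 of them exactly 1 gene; 61 had a RefSeq promoter. Libraries of the same genotype differed by more than counting error in every pair (chi-square over its degrees of freedom 14.3 to 65.6). Same-numbered WT and hetL1002P libraries deviated together (r = 0.285, 0.36 and 0.516), which meets the bound of 0.1 for pairing, while those with hetX753 did not (r from -0.279 to 0.164). What the numbers mark is not given by the labels.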

Additional observations from a re-analysis of the deposited data

Results flagged for a closer look

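Hist2h2ac was flagged because the carriers differed from each other in the direct test: its log2 fold change in hetX753 against hetL1002P was 3.77, higher in all 3 hetX753 libraries than in all 3 hetL1002P libraries, with an adjusted p of 0.0231 in edgeR (range over the alternatives 2.03e-05 to 0.18, leave-one-out fits 0.0223 to 0.0998).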

How the results depend on the processing

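The number of members with reads moved with the limit: 51 with at least 1 count in any library, 19 with a count in every library, 12 kept by the filter and 8 with a mean of at least 1 CPM. Leaving out each library, 0 to 1 members were called in hetX753 against WT and in hetX753 against hetL1002P. With a replicate block on the 2 genotypes alone, 1 member was called in hetL1002P against WT and 0 in hetX753 against hetL1002P, where Hist2h2ac had an adjusted p of 0.18; with the block and the length and GC trend removed 0 were called (0.101). Same-numbered hetX753 and hetL1002P libraries did not deviate together (r from -0.279 to 0.00565), and whether they are paired is not known. DESeq2 gave no adjusted p for Hist2h2ac against WT. Directions that reversed were all of uncalled values, and the cause was not tested. In hetX753 against WT, with the length and GC trend removed and with the block added, Hist1h4h was 0.036 and 0.041 and Hist1h1d -0.24 and -0.23. For hetL1002P against WT, the same fits gave Hist1h1d -0.03 and -0.012 and Hist1h1c 0.01 and 0.017. Hist1h3d was -0.027 with limma-voom and -0.44 without both WT 3 and hetL1002P 3, where Hist2h2ac was -0.29 and Hist1h2be 0.09; Hist1h2be was 0.026 with library totals alone. Leave-one-out ranges in hetX753 against WT were -0.084 to 0.42 for Hist1h3i and -0.14 to 0.40 for Hist1h1d. The hetL1002P ranges against WT were -0.26 to 0.28 for Hist1h3d, -0.20 to 0.19 for Hist1h2be, -0.32 to 0.028 for Hist1h1c and -0.31 to 0.32 for Hist2h2ac. Over all genes, 66 were called in hetX753 against WT, and 660 with DESeq2, 254 with the 2 genotypes alone, 31 with library totals alone, 106 with the replicate block, 166 with the block and trend, 340 without both libraries and 0 to 669 with leave-one-out. Between hetL1002P and WT 0 were called, and 635 with the replicate block on the 2 genotypes alone, 5 with DESeq2, and at most 2 under the other alternatives. In hetX753 against hetL1002P, 15 were called, and 138 with DESeq2, 40 with the trend removed, 38 without a filter, 31 with the block in all libraries, 5 with the 2 genotypes alone, 2 with the block there, 95 without both libraries and 0 to 19 with leave-one-out.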
